A study of Mus musculus with 12 samples.

Results

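The genes described here are 9 tight junction genes of mouse yolk sac: the claudins Cldn1, Cldn2, Cldn3, Cldn4, Cldn6, Cldn7 and Cldn12, the membrane protein occludin (Ocln) and the scaffold Tjp1. They are 9 of 18193 genes measured and were read by 18 probe sets, 4 each for Cldn1 and Cldn3, 2 each for Cldn2, Cldn12 and Ocln, and 1 each for Cldn4, Cldn6, Cldn7 and Tjp1. They were chosen by family, and also because Cldn1 had the highest rise in the knockout at embryonic day 9.0 (E9.0). That rank is among genes with an adjusted p under 0.05 whose knockout arrays all lay above the wild type arrays. The E9.0 values of all 9 genes are therefore given as a description with no test. The study compared whole yolk sacs of Hypb+/+ (wild type) and Hypb-/- (knockout) embryos of the strain labelled 129Sv/C57BL/6 at E9.0 and E10.5, on arrays that read each transcript by short probes. Hypb, also named Setd2, encodes a histone H3 lysine methyltransferase that marks transcribed genes. Each of the 4 groups had 3 arrays, each of a pool of 4 yolk sacs of 1 genotype, and the submitters picked E9.0 because knockouts then looked nearly normal and E10.5 because defects were visible shortly before death. The labels give no tissue-specific driver for the deletion, and no allele besides Hypb.

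Tight junctions seal the space between neighbouring epithelial cells. Claudins are the membrane proteins that form their strands: some make a barrier, whereas others make pores for ions. Occludin belongs to another family of membrane proteins in the same strands, and Tjp1 (also called ZO-1) ties the strands to actin from inside the cell. In the yolk sac the visceral endoderm is the epithelium that faces the mother and takes up nutrients, and it lies on a mesoderm that carries blood vessels and blood cells. A whole yolk sac gives RNA of all these cells together, so fewer cells of a type and less RNA per cell cannot be told apart.

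Values are log2 expression, so a difference of 1 is a 2-fold change, and levels are compared between arrays for 1 probe set, never between genes. The visceral endoderm markers Afp and Ttr were bright in every group, with Afp between 13.71 and 14.23. The Hypb probe set (Setd2) read 8.83 to 9.08 in wild type and 7.53 to 7.99 in knockout at E9.0, and 8.66 to 8.77 and 7.77 to 8.07 at E10.5. The labels do not state which part of the gene was deleted, so whether this probe set lies in it is not known. Replicate 3 stood apart from replicates 1 and 2 by its control probe sets at both stages and in both genotypes. BioC minus BioB, control transcripts added to each sample, was 0.15 to 0.24 in replicate 3 against 1.70 to 1.86 on the other 4 arrays at E9.0, and at E10.5 the 3′ minus 5′ difference of the dap control was 1.63 to 1.65 against 0.87 to 1.18. The labels name no batch, so knockout effects are given over all 3 replicates, over replicates 1 and 2, and in replicate 3 alone.

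The promoters of Cldn1, which was higher in the knockout at E10.5, of Cldn4, which rose from E9.0 to E10.5 in both genotypes, and of its neighbour Cldn3, which had the lowest knockout effect of the 9 at E10.5, are shown so that the starts of these 3 genes can be read against each other. Each is the 250 bases before the start of the gene from RefSeq on GRCm38.p6, 5′ to 3′ on the gene's strand, and capitals mark the motif matches given below. Cldn1 lies at chr16:26371840-26372089 (minus strand), Cldn4 at chr5:134946935-134947184 (minus strand) and Cldn3 at chr5:134985964-134986213 (plus strand).
Cldn1: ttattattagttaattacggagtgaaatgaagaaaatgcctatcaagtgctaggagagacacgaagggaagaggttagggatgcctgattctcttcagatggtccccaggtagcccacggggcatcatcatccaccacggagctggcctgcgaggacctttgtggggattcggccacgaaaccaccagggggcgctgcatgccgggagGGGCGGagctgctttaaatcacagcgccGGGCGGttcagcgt
Cldn4: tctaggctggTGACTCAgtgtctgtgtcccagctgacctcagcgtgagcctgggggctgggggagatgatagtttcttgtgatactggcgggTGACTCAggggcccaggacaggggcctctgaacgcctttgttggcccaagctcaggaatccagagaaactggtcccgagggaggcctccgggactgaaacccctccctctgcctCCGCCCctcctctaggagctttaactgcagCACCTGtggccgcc
Cldn3: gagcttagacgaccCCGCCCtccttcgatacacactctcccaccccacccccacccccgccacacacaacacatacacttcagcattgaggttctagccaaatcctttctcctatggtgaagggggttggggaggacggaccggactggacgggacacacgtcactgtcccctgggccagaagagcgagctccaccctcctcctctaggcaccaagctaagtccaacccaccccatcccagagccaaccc

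The motifs searched on both strands were the E-box CAGGTG, the GC box GGGCGG, the GATA motif AGATAA, the TEAD motif GGAATG, the AP-1 motif TGANTCA and the TATA box TATAAA. The Cldn1 promoter held 2 GC boxes, at 42 to 37 and 14 to 9 bases before the start, and none of the other 5 motifs. It held 14 CpG dinucleotides, more than 70.6% of the 32851 promoters of that length, whose median was 6. The Cldn4 promoter held 2 AP-1 motifs, at 240 to 234 and 158 to 152 bases before the start, an E-box at 14 to 9 and a GC box at 44 to 39. An AP-1 motif was in 6.75% of all promoters, an E-box in 17.2% and a GC box in 32.7%. The Cldn3 promoter held a GC box at 236 to 231 bases before the start and no other motif. A TATA box, in 12.4% of all promoters, was found in the Cldn2 promoter among the members, and a TEAD motif, in 12.6%, in those of Cldn2 and Cldn7. No member promoter held the GATA motif, which was in 9.99% of all promoters. In the RefSeq gene order Cldn4 and Cldn3 are adjacent protein-coding genes, as are Cldn1 and Cldn16, Cldn6 and Cldn9, and Ocln and Marveld2.

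Cldn1, a claudin that makes barriers and is needed for the barrier of skin, was the member whose level differed most between the 4 groups. On its brightest probe set (1437932_a_at) the E9.0 wild type pools read 4.75, 5.28 and 6.61, and the E9.0 knockout pools 7.73, 7.20 and 7.02. The E10.5 wild type pools read 7.60, 8.22 and 7.83, and the E10.5 knockout pools 9.40, 9.39 and 9.03. All knockout arrays were above all wild type arrays of their stage, and the third E9.0 wild type pool lay much nearer to the knockout pools than the other two did. Group means rose in the order E9.0 wild type (5.55 ± 0.96, SD, n = 3), E9.0 knockout (7.32 ± 0.37), E10.5 wild type (7.88 ± 0.31) and E10.5 knockout (9.27 ± 0.21). The arrays of the second and the third of these groups overlapped, and the other neighbours in that order did not overlap.

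**Figure D1:**
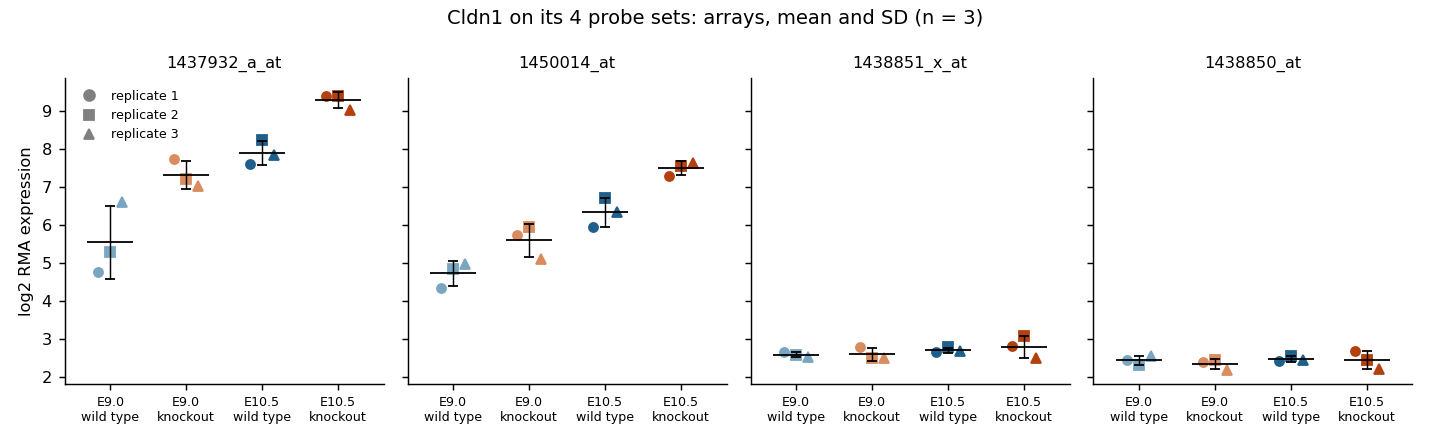
Log2 expression (y axis) of the 4 Cldn1 probe sets in the 4 groups (x axis); symbols are arrays by replicate number, bars are the mean and SD (n = 3). On 1437932_a_at and 1450014_at every knockout array lies above the wild type arrays of its stage, whereas 1438851_x_at and 1438850_at stay between 2.19 and 3.08.

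At E9.0, the comparison that chose the genes, the knockout mean of Cldn1 was 1.77 above wild type on the log2 scale, a 3.41-fold difference. The next highest rise, among genes with an adjusted p under 0.05 by limma and no overlap of arrays, was Ociad2, at 1.46. Over replicates 1 and 2 the Cldn1 difference was 2.45, and in replicate 3 it was 0.41. The adjusted p was under 0.05 for 1 of the 9 members, Cldn1 itself, and for 1.18% of all genes; the choice of Cldn1 fixed that count, so nothing is read from it. Averaged over its 4 probe sets the difference was 0.64.

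At E10.5 Cldn1 was 1.39 (SE 0.36) higher in the knockout, 2.62-fold, with an adjusted p of 0.0373 by limma. The choice used the E9.0 difference and not the E10.5 difference. The 2 comparisons are not fully separate, since the SE and p at both stages draw on the spread of all 12 arrays. Fitted by limma on the E10.5 arrays alone, the SE was 0.18 and the adjusted p 0.00635. With terms for the replicate number at each stage the adjusted p was 0.0546. The difference was 1.49 over replicates 1 and 2 and 1.20 in replicate 3. Cldn1 was 1 of 750 genes that rose at this stage and stood at rank 68 of them by size. The call did not hold without wild type replicate 1 (difference 1.25, adjusted p = 0.132), wild type 2 (1.56, 0.0626), wild type 3 (1.36, 0.0986), knockout 1 (1.33, 0.121) or knockout 2 (1.33, 0.0932), and held without knockout 3 (1.51, 0.0426). Averaged over its 4 probe sets the effect was 0.65 (adjusted p = 0.0332).

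The 4 Cldn1 probe sets did not read alike. The second brightest, 1450014_at, read 4.35, 4.85 and 4.98 in E9.0 wild type, 5.73, 5.94 and 5.10 in E9.0 knockout, 5.95, 6.71 and 6.33 in E10.5 wild type, and 7.28, 7.55 and 7.63 in E10.5 knockout. Its arrays were again separate by genotype at each stage. With every probe set tested on its own over 45037 probe sets, 1450014_at was 1.16 (SE 0.24, adjusted p = 0.0216) higher in the E10.5 knockout and was 1 of the 18 member probe sets called, where 3.64% of all probe sets were, while 1437932_a_at had an adjusted p of 0.0644 there. The other pair, 1438851_x_at and 1438850_at, lay below the lower quartile of the array on all 12 arrays, and their E10.5 knockout effects were 0.09 and -0.03.

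Markers of surface ectoderm and amnion, epithelia that dissection can carry over and that express Cldn1, are given beside it. By limma none of the 8 listed markers passed the test for knockout, with 1 higher at an unadjusted p under 0.05 at E9.0, and 1 higher and 2 lower at E10.5. Only 1.18% of all genes passed it at E9.0 and 7.28% at E10.5, so 0 of 8 lies near those shares. With stage Krt15, Perp and Krt14 rose in wild type and Perp in knockout, where 13.4% and 14.4% of all genes rose. The sum of their linear levels was 304 to 425 in E9.0 wild type, 438 to 470 in E9.0 knockout, 468 to 584 in E10.5 wild type and 573 to 798 in E10.5 knockout. Of these markers Krt15, Krt17, Trp63, Tfap2a and Tfap2b were below the array median on all arrays. Krt5 differed between genotypes at E10.5 by -0.06 (adjusted p = 0.857) and Krt14 by -0.32 (adjusted p = 0.0788). By the range of this sum the 4 groups stood in the same order as by the Cldn1 mean. The ranges of the genotypes were apart at E9.0 and overlapped at E10.5. Such a sum is led by its brightest markers, and the median knockout effect over the 8 markers was 0.025 at E9.0 and -0.08 at E10.5. The part of these markers in the Cldn1 result was not tested.

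Over E9.0 to E10.5 the Cldn1 mean rose by 2.34 in wild type, 5.05-fold, and by 1.96 in knockout, 3.88-fold. These stage values use the E9.0 arrays that chose the gene and share arrays with the knockout comparisons, so they are given with no test. The difference between the knockout effects at the 2 stages was -0.38, and -0.97 over replicates 1 and 2. Leaving out 1 array at a time moved it between -0.91 and 0.02.

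Of all genes, those whose centred profile over the 12 arrays lay closest to that of Cldn1, by the root mean square of the log2 differences, were Gys2 (0.46), the liver form of glycogen synthase, Ccdc122 (0.57), Parp12 (0.57), Ugt3a2 (0.59) and Slc27a2 (0.59), an acyl-CoA synthetase of fatty acid uptake. The median over 18192 genes was 1.41. Gys2 read 3.97 to 5.15 in E9.0 wild type, 4.53 to 5.52 in E9.0 knockout, 5.93 to 6.97 in E10.5 wild type and 7.20 to 7.48 in E10.5 knockout. Cldn4 was the closest other member, at rank 449 (1.06), and the remaining 7 lay between ranks 3054 and 16131. The likeness rests on 12 arrays that share 4 group means.

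Cldn3 and Cldn4, barrier claudins whose genes adjoin, had lower means in the knockout at E10.5, and neither passed the test. Cldn3 (1434651_a_at) read 6.85, 6.81 and 7.63 in E9.0 wild type, 6.86, 7.10 and 7.04 in E9.0 knockout, 7.52, 7.61 and 7.13 in E10.5 wild type, and 6.79, 7.02 and 6.84 in E10.5 knockout. The E10.5 knockout arrays lay below all E10.5 wild type arrays, whereas the E9.0 groups overlapped. The E10.5 effect was -0.54 (SE 0.20, 95% interval -0.96 to -0.11, adjusted p = 0.133), -0.66 over replicates 1 and 2 and -0.29 in replicate 3. The other 3 Cldn3 probe sets gave -0.82, -0.67 and -0.67, and all 4 had knockout below wild type with no overlap. With replicate 3 as a batch term the adjusted p was 0.0468, and with replicates 1 and 2 alone it was 0.0186.

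Cldn4 (1418283_at) read 5.09, 5.55 and 6.06 in E9.0 wild type, 5.50, 5.49 and 5.33 in E9.0 knockout, 6.94, 7.36 and 7.62 in E10.5 wild type, and 6.74, 6.36 and 7.43 in E10.5 knockout. Every E10.5 array was above every E9.0 array, and the genotypes overlapped at both stages. From E9.0 to E10.5 Cldn4 rose by 1.74 (SE 0.27, adjusted p = 0.000791) in wild type, 3.34-fold, and by 1.40 (adjusted p = 0.0029) in knockout, 2.65-fold. Leaving out any 1 array gave 1.50 to 1.99 in wild type and 1.11 to 1.65 in knockout, each past the threshold. The E10.5 knockout effect was -0.46 (SE 0.27, 95% interval -1.06 to 0.13, adjusted p = 0.393).

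**Figure D2:**
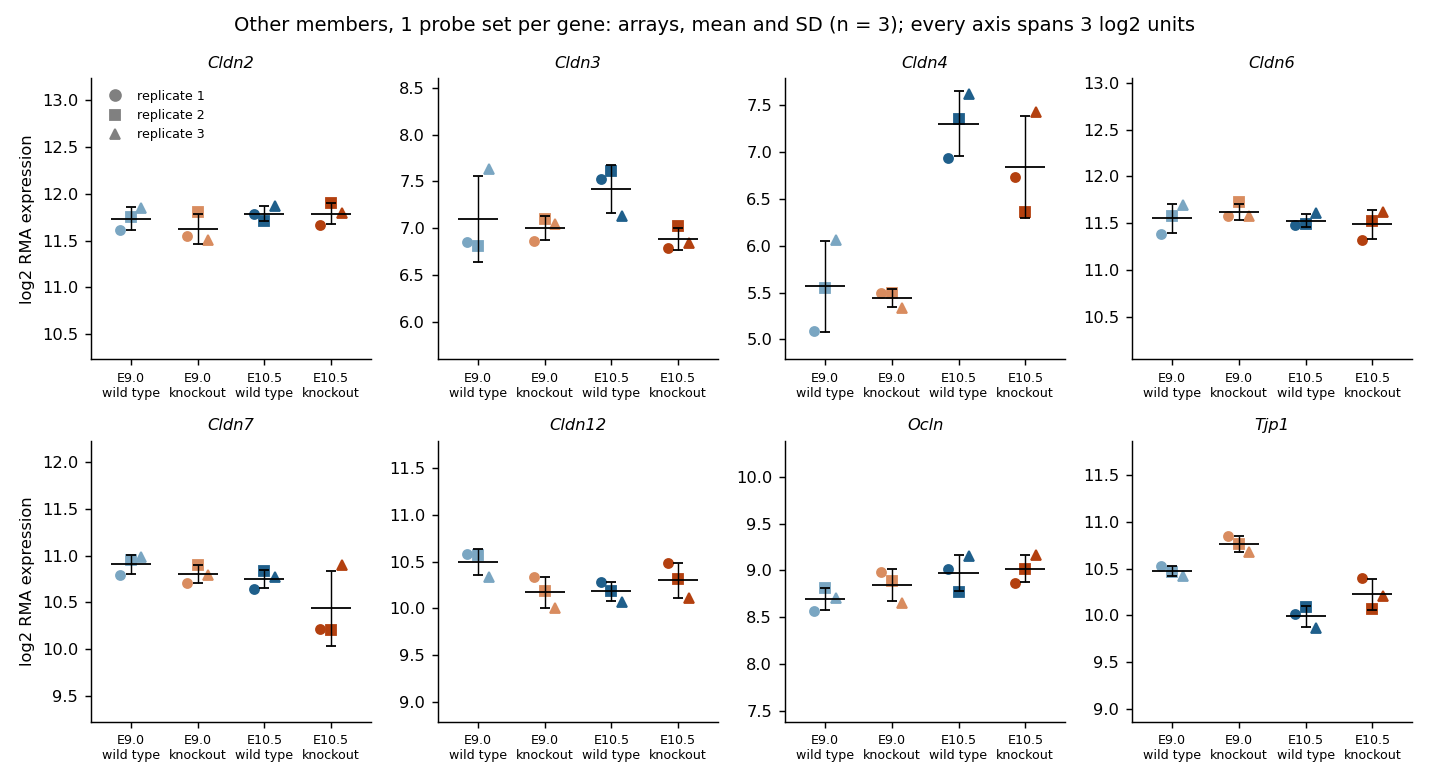
Log2 expression (y axis, each spanning 3 log2 units) of the 8 other members in the 4 groups (x axis), 1 probe set per gene; symbols are arrays by replicate number, bars are the mean and SD (n = 3). Cldn4 stands higher at E10.5 in both genotypes, Tjp1 lower at E10.5, and Cldn2 and Cldn6 spread by less than 0.5 over all arrays.

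Tjp1, the scaffold, moved the other way with stage. It read 10.53, 10.47 and 10.42 in E9.0 wild type, 10.85, 10.76 and 10.68 in E9.0 knockout, 10.02, 10.09 and 9.87 in E10.5 wild type, and 10.40, 10.07 and 10.21 in E10.5 knockout. At E9.0 all knockout arrays were above wild type, by 0.29 in the mean, 0.31 over replicates 1 and 2 and 0.26 in replicate 3. From E9.0 to E10.5 Tjp1 fell by 0.48 (SE 0.10, adjusted p = 0.0056) in wild type and by 0.54 (adjusted p = 0.00282) in knockout, and both held when any 1 array was left out. At E10.5 the knockout effect was 0.23 (SE 0.10, 95% interval 0.01 to 0.46, adjusted p = 0.23), with overlapping arrays.

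Cldn2, a claudin that makes cation and water pores, Cldn6, a claudin of embryonic epithelia, and Ocln had E10.5 knockout effects of 0.00, -0.04 and 0.04, with SEs of 0.11, 0.11 and 0.13. The 95% intervals ran from -0.24 to 0.24 for Cldn2, -0.28 to 0.20 for Cldn6 and -0.24 to 0.32 for Ocln. On all 12 arrays Cldn2 (1417231_at) lay between 11.51 and 11.90, and Cldn6 (1417845_at) between 11.32 and 11.72. Ocln (1448873_at) lay between 8.57 and 9.16, and its stage differences were 0.28 (adjusted p = 0.141) in wild type and 0.18 (adjusted p = 0.367) in knockout. By limma these 3 genes passed no test between genotypes at E10.5 or between stages, and on these probe sets the genotypes overlapped at both stages. The second Cldn2 probe set (1417232_at) spread more widely, from 7.87 to 8.97, with an E10.5 effect of -0.04 (95% interval -0.56 to 0.47). On the second Ocln probe set (1440220_at) the E10.5 wild type arrays read 8.37, 8.30 and 8.38 and the knockout arrays 8.44, 8.66 and 8.42, all above them, by 0.16 in the mean.

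Cldn7, a claudin that also lies on the side membranes of epithelial cells and binds Epcam, read 10.64, 10.83 and 10.77 in E10.5 wild type and 10.21, 10.20 and 10.90 in E10.5 knockout. Knockout replicates 1 and 2 were below the wild type arrays and replicate 3 was above them. The E10.5 effect was -0.31 (SE 0.16, adjusted p = 0.314), -0.53 over replicates 1 and 2 (adjusted p = 0.0313 when fitted on these alone) and 0.13 in replicate 3. Without knockout replicate 3 it was -0.54 (adjusted p = 0.00959), and the stage difference in knockout moved from -0.36 (adjusted p = 0.127) to -0.60 (adjusted p = 0.00176). The sum of the 6 decidua markers, for maternal tissue that surrounds the embryo, ranged over 356 to 936 in E10.5 wild type and 205 to 984 in E10.5 knockout, and their median knockout effect was -0.54 over replicates 1 and 2 and 2.94 in replicate 3. By limma none of the 6 passed the test, with 0 at an unadjusted p under 0.05, and none was below the array median on all arrays, and their part in the Cldn7 values was not tested.

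Cldn12, a claudin found in many tissues, read 10.58, 10.57 and 10.34 in E9.0 wild type, 10.33, 10.19 and 10.00 in E9.0 knockout, 10.28, 10.19 and 10.07 in E10.5 wild type, and 10.48, 10.31 and 10.11 in E10.5 knockout. The E9.0 knockout arrays were below all wild type arrays by 0.32 in the mean, and the E10.5 groups overlapped. The stage difference in wild type was -0.32 (adjusted p = 0.0876) and in knockout 0.13 (adjusted p = 0.523). Its second probe set gave -0.20 for the knockout at E9.0 and -0.04 for stage in wild type.

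Counted together, 1 of the 9 members was called higher in the E10.5 knockout, 0 lower and 8 were not called by limma (2 higher and 1 lower at an unadjusted p under 0.05), where 7.28% of all genes were called, 4.12% higher and 3.16% lower. The median E10.5 effect was 0.00 over the members and -0.01 over all genes. For 2 of the 9 the knockout and wild type arrays were fully apart at E10.5, Cldn1 higher and Cldn3 lower, as for 22.8% of all genes (11.5% higher and 11.3% lower). At E9.0 this held for 3 of 9, Cldn1 and Tjp1 higher and Cldn12 lower, and for 18.0% of all genes (8.56% higher and 9.42% lower). Of the 8 members whose stage change was tested, 2 were called in wild type and in knockout, Cldn4 up and Tjp1 down, where 22.2% of all genes were called in wild type (13.4% up, 8.86% down) and 23.6% in knockout (14.4% up, 9.17% down). The share of members called lay near that of all genes in these comparisons. The difference between the knockout effects at the 2 stages was past the threshold for 0.187% of all genes.

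**Figure D3:**
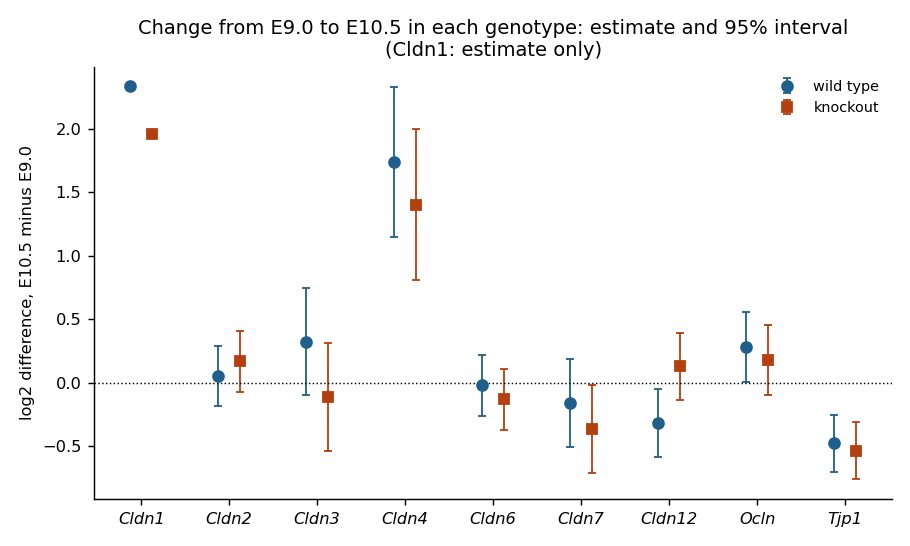
Log2 difference from E9.0 to E10.5 (y axis) for each member (x axis) in wild type and knockout, with the 95% interval from the fit except for Cldn1, which is an estimate only. Cldn1 (2.34 and 1.96) and Cldn4 (1.74 and 1.40) lie above 0 in both genotypes and Tjp1 (-0.48 and -0.54) below.

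Other genes of the junction were taken from 4 lists. By limma none of 13 other claudins was called in any of the 5 comparisons, with 1 higher and 1 lower at an unadjusted p under 0.05 in the E10.5 knockout. Of all genes 1.18% were called in the E9.0 knockout and 7.28% in the E10.5 knockout. With stage 22.2% were called in wild type and 23.6% in knockout, and 0.187% for the difference between the knockout effects. Of these 13 claudins 10, Cldn16 and Cldn9 included, were below the array median on all arrays. The median E10.5 effect of the 13 was -0.10. Among 12 other membrane proteins of tight junctions and cell poles, 2 rose in the E10.5 knockout, 3 fell and 7 were not called, with a median of -0.13. Over all genes 4.12% rose there and 3.16% fell. Jam3, an adhesion molecule, rose by 0.72 (SE 0.13, adjusted p = 0.00487), while its other probe set gave -0.25 (adjusted p = 0.533). Ildr2, of the angulins that seal corners between cells, rose by 0.63 (adjusted p = 0.00696), with 0.29 and -0.27 on its other probe sets. Averaged over their probe sets neither was called, Jam3 at 0.24 (adjusted p = 0.197) and Ildr2 at 0.22 (adjusted p = 0.167). Igsf5, an adhesion molecule, fell by 1.04 (SE 0.16, adjusted p = 0.00187).

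Marveld2 (tricellulin), which seals the corners where 3 cells meet and belongs to the family of occludin, read 7.68, 7.74 and 7.86 in E10.5 wild type and 7.11, 7.05 and 7.01 in E10.5 knockout. It fell by 0.70 (SE 0.15, adjusted p = 0.0124) while its neighbour Ocln had an effect of 0.04. It was also called lower at E9.0, as were 0.632% of all genes, by 0.83 (adjusted p = 0.0224), a call that held in 1 of 6 fits that left out 1 array. Crb3, a protein of the apical pole, fell at E10.5 by 0.48 (adjusted p = 0.041), a call that held in 1 of 6 such fits.

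Among 21 scaffold and polarity proteins, 2 rose in the E10.5 knockout, 1 fell and 18 were not called, with a median of 0.10. Over all genes 4.12% rose there and 3.16% fell. Amotl2, an angiomotin that binds junction scaffolds, read 8.48, 8.83 and 8.78 in wild type and 9.82, 9.38 and 10.01 in knockout, a rise of 1.04 (SE 0.15, adjusted p = 0.00129). Tjp3, the scaffold related to Tjp1, fell by 0.95 (SE 0.17, adjusted p = 0.00501), whereas Tjp1 was at 0.23. Magi1, another scaffold, rose by 0.48 (adjusted p = 0.0433), held in 1 of 6 such fits and gave 0.34 to -0.08 on its 4 other probe sets. With stage, 9 of the 21 fell and none rose in wild type, and 5 fell (Amot, Ybx3, Pard6b, Magi1 and Prkci) and none rose in knockout, where 8.86% and 9.17% of all genes fell. The angiomotin Amot fell by 1.28 in wild type and 1.47 in knockout, and Ybx3, a partner of Tjp1, by 0.55 and 0.83; the calls of both held when any 1 array was left out. The other Amot probe sets gave -0.24 and -1.01 in wild type and -0.16 and -1.09 in knockout, and averaging its probe sets gave -0.84 and -0.91. The list medians were -0.38 in wild type and -0.26 in knockout, against 0.03 for all genes in each.

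**Figure D4:**
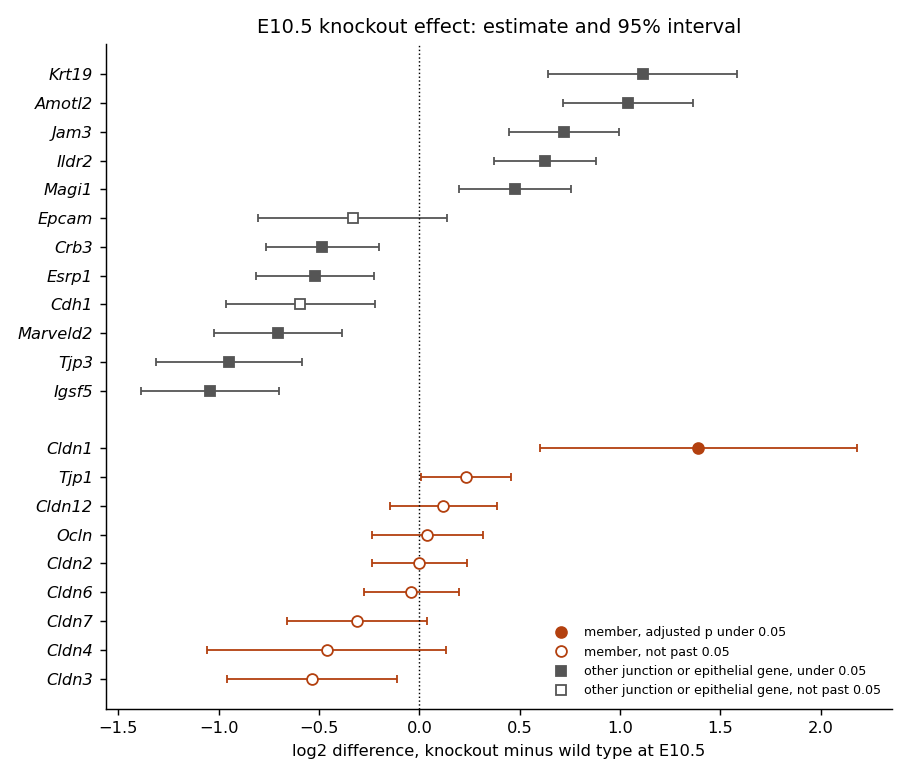
Log2 difference, knockout minus wild type at E10.5 (x axis), with the 95% interval from the fit, for the 9 members and for 12 other junction or epithelial genes (y axis); filled symbols have an adjusted p under 0.05. Cldn1 (1.39) is the filled member, and the other genes run from Igsf5 (-1.04) to Krt19 (1.11).

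Among 23 epithelial adhesion and identity genes, 1 rose in the E10.5 knockout, 1 fell and 21 were not called, with a median of 0.05. Of all genes 7.28% were called there. Krt19, a keratin of simple epithelia, read 9.11, 8.96 and 8.77 in wild type and 10.11, 9.70 and 10.37 in knockout, a rise of 1.11 (SE 0.22, adjusted p = 0.00862). Esrp1, a splicing factor of epithelial cells, fell by 0.52 (adjusted p = 0.0364), held in 1 of 6 such fits. Cdh1 (E-cadherin), the main adhesion molecule of epithelia, was at -0.59 (adjusted p = 0.0563) and Epcam, the partner of Cldn7, at -0.33 (adjusted p = 0.453). At E9.0 Rab25, a GTPase of epithelial membrane recycling, was the member of this list that was called, higher by 0.81 (adjusted p = 0.0189), held in 2 of 6 such fits. Of all genes 0.55% were called higher at that stage.

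With stage, Krt7, a keratin of simple epithelia, rose by 1.91 in wild type and 1.61 in knockout, beside Cldn4. The viral receptor Cxadr, a junction adhesion protein, rose by 1.20 and 1.13 on its brightest probe set, and its 4 other probe sets gave 0.05 to 0.68 in wild type; averaged over probe sets it rose by 0.47 and 0.46. Marveld2 rose by 0.72 and 0.85. Of the 12 membrane proteins 3 rose in wild type (Igsf5 also, by 0.66) and 2 fell (F11r and Lsr). In knockout 4 rose (Ildr2 and Jam3 also) and 1 fell (Ildr1). Over all genes 13.4% rose and 8.86% fell in wild type, and 14.4% rose and 9.17% fell in knockout. The calls of F11r and Lsr held in 2 and 0 of 6 fits that left out 1 array, and their other probe sets gave 0.03 and 0.13. The knockout rise of Ildr2, 0.45, held in 4 of 6 such fits and its other probe sets gave 0.02 and -0.32, while Ildr1 was below the array median on all arrays. Of the 23 epithelial genes 4 rose in wild type (Krt7, Ap1m2, Ovol2 and Epcam) and 3 in knockout (Krt7, Ap1m2 and Krt19). In each genotype 2 fell, and these counts lay near the shares of all genes. The Ovol2 and Epcam calls each held in 4 of 6 leave-out fits, and Ovol2 was below the array median on all arrays. Those that fell were the desmosome genes Dsg2 and Dsp, by 0.71 and 0.64 in wild type and 0.67 and 0.71 in knockout, the Dsp call holding in 1 of 6 leave-out fits in wild type and 4 of 6 in knockout.

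Markers of the other yolk sac cells were measured the same way, and their part in the values above was not tested. In the E10.5 knockout 4.12% of all genes rose and 3.16% fell. Of 14 visceral endoderm markers, 1 fell in the E10.5 knockout, Cubn by 0.36 (adjusted p = 0.0353, held in 1 of 6 such fits), and Afp and Ttr were at 0.01 and -0.03. Their summed linear level was 108109 to 113186 in E9.0 wild type, 102939 to 115067 in E9.0 knockout, 121327 to 127469 in E10.5 wild type and 111210 to 118444 in E10.5 knockout, lower in all E10.5 knockout arrays than in wild type. Of 9 endothelial markers 2 rose, Icam2 by 0.56 and Pecam1 by 0.86, with sums of 2939 to 3470, 2871 to 3414, 2156 to 2794 and 2631 to 3615 in the same order of groups. Of 9 mesothelial and mesenchymal markers 3 rose, Wt1 by 1.03, Acta2 by 0.76 and Lrrn4 by 0.61, with sums of 9004 to 14159, 8994 to 10448, 14269 to 15932 and 14441 to 21114, and Msln was below the array median on all arrays. Of 6 markers of primitive red cells 1 fell, Epb42 by 1.25, with sums of 53784 to 58866, 56544 to 61316, 58956 to 59522 and 48104 to 56935. Except for Acta2, the calls of these 6 genes held in 1 or 2 of the 6 fits that left out 1 array. By limma none of 7 parietal endoderm markers was called in the knockout comparisons and 0 had an unadjusted p under 0.05, with sums of 9413 to 15894, 9500 to 26046, 5465 to 6736 and 7566 to 9115, and the same held for 3 trophoblast markers, with sums of 25 to 28, 28 to 30, 32 to 79 and 28 to 180 and Ctsq below the array median on all arrays. The decidua sums at E9.0 were 285 to 2241 in wild type and 276 to 998 in knockout.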

How the data were processed

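The deposited table holds 1 column per array for 12 arrays of yolk sac RNA (biotinylated cRNA from 5 µg of total RNA, Mouse Genome 430 2.0). Per the submitters' processing notes, RMA gave the log2 values the authors deposited (the RMA version is not given in the sources used here). RMA sets all arrays to 1 distribution and compresses the changes of dim probe sets. Values ran from 2.03 to 14.49, array medians from 5.27 to 5.34; such arrays give no depth, so their number limits the precision.

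Of 45101 probe sets, 64 controls stayed out of the tests. By the platform annotation 34945 had 1 gene symbol, 932 several and 9160 no entry here. The brightest probe set on average stood for each of 18193 genes, of which 18032 were matched to the reference table by gene ID. With limma 3.58.1 (lmFit, eBayes) in R 4.3.3, the 4 group means were estimated from all 12 arrays, two-sided, with Benjamini-Hochberg adjustment over all genes at 0.05 and intervals at 95%. The script was tested on simulated data.

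The members and gene lists were chosen with earlier results of these data known. Genes named are all members, the list genes called (up to 6 each way at E10.5, up to 3 with stage), Cdh1, Epcam, the first markers of a list and the 5 genes nearest to Cldn1 over the 12 arrays. The list genes called at E9.0, and marker and list genes beyond these numbers, were named after their values were seen. Alternatives were the mean over probe sets, further quantile normalisation, brighter genes, an intensity trend, replicate and batch terms, fewer arrays, and leaving out each array. Promoters come from RefSeq; all 9 members had an entry, and the upstream 250 bases were searched.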

Additional observations from a re-analysis of the deposited data

How the results depend on the processing

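Leaving out 1 array at a time gave 0 to 2 members called at E10.5 (1 with all arrays), 2 to 3 with stage in each genotype (2 with all), an E9.0 Cldn1 difference of 1.37 to 2.30, and a difference between the knockout effects on Cldn1 of -0.91 to 0.02. The E10.5 members called were 2 with replicate 3 as a batch term (Cldn1 and Cldn3) and 3 with replicates 1 and 2 only (Cldn7 too), where the Cldn1 difference between stages was -0.97. Averaging probe sets gave 0.64 for Cldn1 at E9.0. Among brighter genes 1 member was called with stage in each genotype, since Cldn4 was not tested there.

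With the replicate block 0 members were called at E10.5 (Cldn1 adjusted p = 0.0546); with the block the calls over all genes went from 215 to 349 at E9.0, 1325 to 1814 at E10.5 and 34 to 115 for the difference. Cldn12 in wild type with stage had an adjusted p of 0.0157 with the block. Not every sample correlated best with its own number. Same-numbered arrays of the genotypes share only a number: their deviations correlated at 0.03, 0.23 and 0.24 at E9.0 and 0.26, 0.07 and 0.40 at E10.5.

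Uncalled effects changed sign, with these ranges when 1 array was left out: at E10.5 Ocln -0.063 to 0.127 (below 0 without wild type 2 or knockout 3), Cldn6 -0.107 to 0.043 (above 0 without wild type 3 or knockout 1), Afp -0.027 to 0.033, the decidua markers Prl8a2 -0.868 to 0.287 (-0.39 with all arrays) and Gzmd -0.668 to 1.672 (0.59), and the mesothelial marker Upk3b (-0.06) -0.282 to 0.078, and with stage in wild type Cldn2 -0.01 to 0.11 (below 0 without E9.0 wild type 1) and Cldn6 -0.108 to 0.047 (above 0 without E9.0 wild type 3). After quantile normalisation Cldn6 was 0.002 and Ttr 0.082 at E10.5, and Cldn2 -0.013 with stage in wild type; with replicates 1 and 2 only Afp was -0.005 and Gzmd -1.27 at E10.5. Cldn3 rose with stage in wild type by 0.59 (adjusted p = 0.0146) without E9.0 wild type 3.

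Calls over all genes under other settings were 476 (batch term), 69 (replicates 1 and 2), 61 (only those 2 groups) and 33 to 182 (1 array out) at E9.0; 2081 (batch term), 773 (those 2 groups), 873 (brighter genes) and 693 to 1630 (1 array out) at E10.5; and for the difference 91 (batch term), 12 to 90 (1 array out) and, by limma among brighter genes, 0, with 680 at an unadjusted p under 0.05. The causes were not tested.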
